A study of Mus musculus with 4 samples.

Results

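Gene expression was compared between rods, sorted as Cd73-positive cells (Cd73P), and the Cd73-negative remainder (Cd73N) of retinas labelled Ezh2-cKO, and the difference between these fractions was set beside the same difference in wild type. The genes were the deposited rows whose status was OK in both Ezh2-cKO libraries and whose FPKM (a read density scaled to exon length and to library size) was at least 10 in 1 of them, which gave 7510 of 23021 rows. All 4 libraries came from mouse retina at postnatal day 12 on the slc:ICR background, with 1 library in each group. The Ezh2-cKO mice carried a floxed Ezh2 gene and the DKK3-Cre transgene, which acts in retinal progenitors from early embryonic stages. Wild-type libraries came from normal littermates. The number of retinas pooled for each library at this age is not given in the sources used here. Cells were stained with an antibody against Cd73 and sorted by flow cytometry, and poly(A) RNA was sequenced as 36-base single-end reads with a kit that does not mark strand.

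Cd73 is a surface enzyme that makes adenosine from AMP, is encoded by Nt5e and marks rod photoreceptors and their precursors. Rods detect dim light: a photon activates rhodopsin, transducin passes the signal to a cGMP phosphodiesterase, and the fall in cGMP closes cation channels in the outer segment. The Cd73N fraction holds what the sort leaves, which in mouse retina includes cones, bipolar and amacrine cells, Müller glia and vessels. Ezh2 is the catalytic subunit of Polycomb repressive complex 2 (PRC2), which places the repressive H3K27me3 mark on histone H3, and Ezh1 is its homologue.

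The genes with the highest Cd73P to Cd73N ratio in Ezh2-cKO were led by rod genes, and 2 of their upstream sequences are shown because they hold the letters TAATC or their reverse complement GATTA, the core bound by the photoreceptor homeodomain factors Crx and Otx2. Both are the 120 bases before the RefSeq start on build GRCm38.p6, 5′ to 3′ on the gene's strand, with the core in capitals. Nr2e3, a nuclear receptor that represses cone genes in rods, lies on the minus strand at chr9:59950080-59950199, and its GATTA covers bases 46 to 42 before the start. Pde6b, a catalytic subunit of rod phosphodiesterase, lies on the plus strand at chr5:108388253-108388372, and its TAATC covers bases 30 to 26 before the start.
Nr2e3: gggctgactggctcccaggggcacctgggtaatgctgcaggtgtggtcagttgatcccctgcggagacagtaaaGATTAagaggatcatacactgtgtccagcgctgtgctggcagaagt
Pde6b: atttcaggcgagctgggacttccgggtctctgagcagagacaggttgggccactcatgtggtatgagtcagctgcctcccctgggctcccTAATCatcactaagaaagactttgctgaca
Of the 8 genes with the highest Cd73P to Cd73N ratio in Ezh2-cKO, 7 were in the RefSeq table, and 3 of their 8 windows of 250 bases held the core on either strand (Cnga1, Nr2e3 and Pde6b). Of the 8 genes with the lowest ratio, 4 were in the table, and 1 of their 6 windows held it (Neurod4). The core was present in 19.8% of all 32851 windows of that length. A match describes letters in a window and was not tested as a binding site.

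The labels of the sort were checked against marker genes. Nt5e itself (mm9 chr9:88222447-88266927) was at 0.61 FPKM in Cd73N and 122.6 in Cd73P of Ezh2-cKO, beside 0.84 and 125.4 in wild type. Nrl, the transcription factor that sets rod fate (chr14:56137815-56143802), was at 11.02 and 1615 in Ezh2-cKO and at 27.7 and 1377 in wild type. Apoe, a lipid carrier made by Müller glia (chr7:20281593-20284515), was at 1532 in Cd73N and 68.1 in Cd73P of Ezh2-cKO, beside 356.8 and 35.3 in wild type. These markers separated the fractions in both genotypes as the labels say. Ezh2 (chr6:47480273-47545029) did not differ downwards between the Cd73N libraries, at 15.9 FPKM in Ezh2-cKO against 14.1 in wild type, and was at 3.45 against 5.38 in Cd73P. A value for the whole gene does not show whether the floxed exon is missing, so these libraries are referred to by their label.

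The tables give FPKM without read totals, so the depth of each library is unknown. Taking Cd73N of wild type as 1, depth estimated from the widths of deposited bounds over 6242 genes was 1.001 for Cd73P wild type, 1.17 for Cd73N Ezh2-cKO and 1.04 for Cd73P Ezh2-cKO. The 10 highest genes held 4.29% to 4.42% of the FPKM sum in the Cd73N libraries and 8.71% to 11.5% in the Cd73P libraries. A row with a status of too much data was listed at 0 in each Cd73P library. The Y-linked genes Ddx3y and Eif2s3y were at 10.4 to 13.1 FPKM in the wild-type libraries and at 0 to 0.70 in the Ezh2-cKO libraries, and Xist, the RNA that silences an X chromosome in females, was at 240.4 in Cd73N and 95.6 in Cd73P of Ezh2-cKO against 52.2 and 47.0 in wild type. With 1 library a side there is no replicate check, so every difference below compares 2 libraries and no p-value was computed. Standard errors (SE) reflect counting error inside a library and are given only where each FPKM involved lay inside its own deposited bounds, which held for 3736 genes (49.8%) over all 4 libraries. Their median was 0.051 for a log2 ratio of fractions.

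The fraction ratio below is log2 of (FPKM + 1) in Cd73P over (FPKM + 1) in Cd73N, so that positive values are higher in Cd73P and ratios of weakly expressed genes are understated. In Ezh2-cKO, 1311 genes (17.5%) were at least 1.5-fold higher in Cd73P and 3180 (42.3%) at least 1.5-fold higher in Cd73N. Among the 7501 of these genes with status OK in all 4 libraries, 1280 (17.1%) were higher in Cd73P and 3449 (46.0%) in Cd73N of wild type. The median fraction ratio was -0.41 in Ezh2-cKO and -0.48 in wild type, and centring each ratio on its median in expressed genes moved it by 0.24 and 0.30. The split of calls in Ezh2-cKO then became 1736 higher in Cd73P and 2464 higher in Cd73N, and scaling by the FPKM sum gave 1695 and 2543. Differences of at least 4-fold were found for 319 genes towards Cd73P and 1209 towards Cd73N, and of at least 16-fold for 59 and 304.

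Most of what divided the fractions in Ezh2-cKO also divided them in wild type. Of 1308 genes at least 1.5-fold higher in Cd73P of Ezh2-cKO, 1056 (80.7%) passed the same threshold in the same direction in wild type, and so did 2840 of 3179 (89.3%) on the Cd73N side. The shift, the fraction ratio in Ezh2-cKO minus that in wild type, sorted these genes into classes. A difference was kept if it passed 1.5-fold in both genotypes in the same direction with a shift of less than 1.5-fold. It was widened or narrowed if the shift was at least 1.5-fold along or against its direction, also where it passed the threshold in only 1 genotype, and reversed if it passed in both genotypes in opposite directions. On the Cd73P side 887 genes (11.8%) were kept, 182 (2.43%) widened and 148 (1.97%) narrowed. On the Cd73N side 2197 (29.3%) were kept, 700 (9.33%) widened and 166 (2.21%) narrowed. A reversal was found for 12 genes (0.160%) that were higher in Cd73P of Ezh2-cKO and for 30 (0.400%) that were higher in Cd73N, and the remaining 3179 (42.4%) fell in none of these classes. This remainder, called undivided, holds genes under 1.5-fold in both genotypes and genes past it in 1 genotype whose shift was under 1.5-fold. Scaling by the FPKM sum gave 1337 kept on the Cd73N side and 312 and 71 narrowed on the Cd73P and Cd73N side, so which side narrowed more depended on scaling. The widened count on the Cd73N side depended on the choice of genes, since a minimum on the Ezh2-cKO pair admits genes that are high only there: with FPKM of at least 10 asked of the wild-type pair it was 411.

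**Figure D1:**
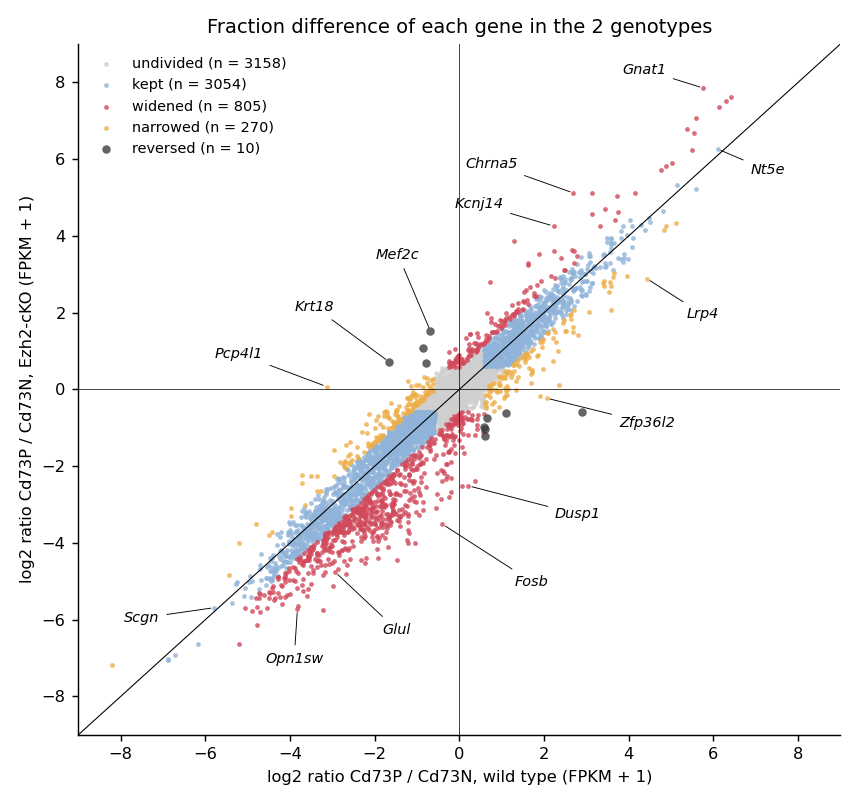
Each point is a gene, with its log2 ratio of Cd73P over Cd73N (FPKM + 1) in wild type on the x axis and in Ezh2-cKO on the y axis, coloured by class, small RNA names left out; the diagonal marks equal ratios. The widened genes (805 in all) lie mostly below the diagonal on the negative side, where 653 of them are higher in Cd73N.

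The FPKM minimum of 10 is a limit of the rule and not of the data. Just inside it were Zmym6 (9.10 in Cd73N and 10.0022 in Cd73P of Ezh2-cKO) and A930004D18Rik (6.24 and 10.0026), and just outside it Cml1 (9.9996 and 4.18) and Hey2 (9.996 and 2.11). In all, 820 genes entered through Cd73P alone, 2021 through Cd73N alone and 4669 through both. Among the 9 genes whose status was not OK in a wild-type library was Gnb1, the transducin beta subunit used by rods, at 77.9 FPKM in Cd73N and 2962 in Cd73P of Ezh2-cKO, and no shift could be given for it.

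Rod phototransduction genes were far higher in Cd73P of Ezh2-cKO, and several stood further apart than in wild type. Of 20 listed genes 18 were compared, 1 other lying on several rows and 1 having too much data. Of these, 17 were at least 1.5-fold higher in Cd73P and 1 in Cd73N, with a median fraction ratio of 3.98 against -0.41 over all genes compared. Over the 17 with status OK in all 4 libraries, 10 differences were kept and 7 widened, and the median shift was 0.31 against 0.045 over all genes. The shift of this list was smaller, 0.12, when libraries were scaled by their FPKM sums.

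Gnat1, the rod transducin alpha subunit (chr9:107576805-107581923), had the highest fraction ratio in Ezh2-cKO, 7.85. Its FPKM was 36.2 in Cd73N and 2016 in Cd73P of wild type and 20.6 and 4999 in Ezh2-cKO. The level was thus lower in Cd73N and higher in Cd73P than in the wild-type libraries, and the shift was 2.09. Cnga1, the alpha subunit of the rod cGMP-gated channel, was at 4.25 and 449.9 in wild type and 1.71 and 535 in Ezh2-cKO, a shift of 1.20. Pde6b was at 8.28 and 649.8 in wild type and at 2.18 and 522 in Ezh2-cKO. Its fraction ratio widened from 6.13 to 7.36 although its level in Cd73P was lower in Ezh2-cKO, because the level in Cd73N differed more. Slc24a1, the rod sodium, calcium and potassium exchanger, was at 2.49 and 162 in wild type and at 1.28 and 234 in Ezh2-cKO, a shift of 1.14. Guca1b, an activator of retinal guanylate cyclase, was at 15.8 and 181 in wild type and 16.3 and 450.0 in Ezh2-cKO, a shift of 1.27 that lay in Cd73P. Pde6a, the other catalytic subunit, and Rcvrn, the calcium sensor recoverin, were the remaining widened genes, with shifts of 0.76 and 0.63.

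The most abundant members, Pdc and Sag, kept their difference. Pdc, phosducin, was at 244 and 5501 FPKM in Cd73N and Cd73P of wild type and at 282 and 6196 in Ezh2-cKO, and Sag, rod arrestin, at 389 and 4081 and at 462 and 5229. Their shifts were -0.035 and 0.11. Pde6g, the inhibitory subunit of the phosphodiesterase, was kept with a shift of 0.31. Guca1a, another cyclase activator, was the exception in direction, at 398 and 39.4 FPKM in wild type and 520.3 and 70.3 in Ezh2-cKO, higher in Cd73N in both.

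Genes of outer segment structure divided the fractions almost as in wild type. Of 15 listed genes 14 were compared, and all 14 were at least 1.5-fold higher in Cd73P of Ezh2-cKO, with a median fraction ratio of 3.33 against 3.002 in wild type. Of these, 13 were kept and 1 widened, and the median shift of 0.18 became -0.013 with scaling by the FPKM sum. Prph2, a tetraspanin of the disc rim, was at 177 and 2522 FPKM in wild type and 176 and 3093 in Ezh2-cKO, and its partner Rom1 at 299.7 and 2196 and at 256 and 2786. Fscn2, an actin-bundling protein of photoreceptors, was the widened member, at 3.43 and 38.0 in wild type and 1.47 and 57.3 in Ezh2-cKO, a shift of 1.43. Impg2, of the matrix between photoreceptors, shifted the other way by -0.49 and stayed in the kept class.

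Among 11 photoreceptor transcription factors, 10 were at least 1.5-fold higher in Cd73P of Ezh2-cKO and none in Cd73N, with a median fraction ratio of 2.077 against 2.104 in wild type. Of these, 5 were kept and 3 were widened, namely Nrl, Nr2e3 and Esrrb. Nrl had a ratio of 7.07 and a shift of 1.49, and Nr2e3 was at 16.8 and 1392 FPKM in wild type and 5.09 and 1117 in Ezh2-cKO, a ratio of 7.52 and a shift of 1.23. Esrrb, a nuclear receptor of rods, was at 1.98 and 124 in wild type and 0.93 and 210.1 in Ezh2-cKO, a shift of 1.39. Crx, which cones also use, was kept, at 254 and 1038 in wild type and 215 and 909 in Ezh2-cKO, with a shift of 0.049. Otx2, which bipolar cells also use, was at 388 and 328 in wild type and 224 and 225 in Ezh2-cKO and was under 1.5-fold in both. Samd7, a photoreceptor Polycomb cofactor, was the narrowed member, at 8.06 and 266 in wild type and 8.84 and 186 in Ezh2-cKO, a shift of -0.63.

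Synaptic genes of photoreceptors leaned further to Cd73P. Of 16 listed genes 13 were compared, and 8 were at least 1.5-fold higher in Cd73P and 1 in Cd73N of Ezh2-cKO, with a median fraction ratio of 0.98 against 0.40 in wild type. The median shift of 0.38 became 0.18 with scaling by the FPKM sum and 0.29 over all listed genes. Widening was found for 4, the glutamate transporter Slc17a7, Unc119, Rims2 and Cabp4, while 5 were kept and 4 undivided. Slc17a7 was at 419 and 489.6 FPKM in wild type and 296 and 623 in Ezh2-cKO, and Unc119, a lipid-binding trafficking protein, at 712 and 1536 and at 543 and 1964. In both the Cd73N level was lower and the Cd73P level higher in Ezh2-cKO. Cplx3, a complexin also used outside rods, was higher in Cd73N in both genotypes, with ratios of -2.42 and -2.72.

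Genes of the photoreceptor cilium mostly kept their difference. Of 24 listed genes 20 were compared, and 16 were at least 1.5-fold higher in Cd73P and 2 in Cd73N of Ezh2-cKO. Of these 20, 14 were kept, 3 narrowed and none widened, beside 2.43% of all genes widened on the Cd73P side, and the median shift was -0.043. Rpgrip1, which anchors the connecting cilium complex, was at 14.001 and 179 FPKM in wild type and 26.3 and 176 in Ezh2-cKO, a shift of -0.88. Its binding partner Rpgr narrowed by -0.84 ± 0.086 (SE) and the transport protein Ift57 by -0.64 ± 0.097. Bbs5, of the BBSome that carries membrane proteins, was kept at 8.78 and 86.8 in wild type and 12.2 and 106 in Ezh2-cKO.

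Müller glia genes carried the broadest widening on the Cd73N side. Of 26 listed genes all 26 were compared, and 25 were at least 1.5-fold higher in Cd73N of Ezh2-cKO, beside 42.3% of all genes. Their median fraction ratio was -4.22 against -3.03 in wild type, with a median shift of -1.15. The shift was negative for all 26, with 22 widened, 3 kept and 1 narrowed, beside 9.33% of all genes widened on the Cd73N side. The median difference between genotypes over these genes was 2.07 on the log2 scale in Cd73N and 0.74 in Cd73P, with Hes5, a Notch target, lower in Cd73P of Ezh2-cKO (1.36 FPKM against 2.12). In bulk libraries, more or fewer cells of a type and more or less RNA per cell cannot be told apart.

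Glul, the glutamine synthetase of Müller glia (chr1:155747075-155756844), was at 257 FPKM in Cd73N and 32.8 in Cd73P of wild type and at 1759.8 and 63.9 in Ezh2-cKO, a shift of -1.83. Dkk3, a secreted protein and the gene that gave the Cre driver its name, was at 123 and 5.32 in wild type and 916 and 28.8 in Ezh2-cKO, a shift of -0.65. Whether the transgene adds to the Dkk3 reads was not tested. On the FPKM + 1 scale the channels of the glial endfeet had the largest shifts of the list, -2.12 for Aqp4 and -2.03 for Kcnj10. Aqp4, a water channel, was at 6.89 and 0.22 in wild type and 69.6 and 1.51 in Ezh2-cKO. Kcnj10, a potassium channel, was at 3.99 and 0.31 and at 29.0 and 0.93. Their Cd73P levels lay near or below the pseudocount, so the size and rank of these shifts rest on it. With a pseudocount of 0.1 the median shift of the list was -0.86. Slc1a3, the glial glutamate transporter, widened by -1.05. Rlbp1, a retinoid carrier, and Dbi were kept, with shifts of -0.29 and -0.36 ± 0.091 (SE). Rlbp1 was higher in both Ezh2-cKO fractions by similar factors, at 115 and 6.54 in wild type and 499 and 25.7 in Ezh2-cKO. Rax, a factor that photoreceptor precursors also use, leaned to Cd73P in wild type (39.4 and 77.7) and was even in Ezh2-cKO (95.4 and 93.1).

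Cone genes also widened towards Cd73N, by the medians more through a lower level in Cd73P of Ezh2-cKO, although not in every gene. Of 12 listed genes 11 were compared, 10 were at least 1.5-fold higher in Cd73N of Ezh2-cKO, and 9 were widened. Over all genes 42.3% were higher and 9.33% widened on the Cd73N side. The median fraction ratio was -5.33 against -3.81 in wild type, and the median difference between genotypes was -0.98 in Cd73P and 0.33 in Cd73N. Opn1sw, the short-wavelength cone opsin (chr6:29326671-29330513), was at 552 and 38.0 FPKM in wild type and at 706 and 12.4 in Ezh2-cKO, a shift of -1.90. Arr3, cone arrestin, was at 186 and 12.4 in wild type and 438 and 7.81 in Ezh2-cKO, a shift of -1.83. Pde6h, the cone phosphodiesterase inhibitor, was the most abundant, at 1237 and 70.8 in wild type and 2018 and 46.7 in Ezh2-cKO. Arr3, Pde6h and Pde6c differed more between genotypes in Cd73N (1.23, 0.71 and 0.999) than in Cd73P (-0.60, -0.59 and -0.34). Gngt2, the cone transducin gamma subunit, shifted by -1.77 ± 0.083 (SE). Thrb, the thyroid hormone receptor that sets cone opsin choice, was undivided, at 13.7 and 18.02 in wild type and 14.9 and 19.96 in Ezh2-cKO.

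Bipolar genes had negative median differences between genotypes in both fractions, and 10 of 18 had a widened fraction difference. Of 21 listed genes 18 were compared, 16 were at least 1.5-fold higher in Cd73N of Ezh2-cKO, and 4 were kept and 3 narrowed. Over all genes 42.3% were higher and 9.33% widened on the Cd73N side. The median difference between genotypes was -0.70 in Cd73N and -1.19 in Cd73P, although Sebox and Prkca were higher in Cd73P of Ezh2-cKO (15.7 against 11.5 and 29.7 against 26.8 FPKM), and the median fraction ratio was -4.74 against -4.08. Pcp2, a modulator of G protein signalling in ON bipolar cells, was at 653 and 82.9 FPKM in wild type and 336 and 14.1 in Ezh2-cKO, a shift of -1.52 ± 0.12 (SE). Gng13 and Trpm1, of the glutamate-gated pathway of ON bipolar cells, widened by -1.58 ± 0.18 and -1.40 ± 0.072. Scgn, a calcium-binding protein of cone bipolar cells, and Bhlhe23, a factor of rod bipolar cells, were kept: Scgn was at 501 and 8.11 in wild type and 191 and 2.74 in Ezh2-cKO. Vsx1 was at 85.5 and 0.998 in wild type and 37.5 and 0.34 in Ezh2-cKO and counted as narrowed with a shift of 0.59, but with a pseudocount of 0.1 in place of 1 its shift was -0.14, so that its direction is set by how a level under 1 FPKM is treated. The size of the list's shift depended on the same choice, from -0.68 to -0.027 with a pseudocount of 5.

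**Figure D2:**
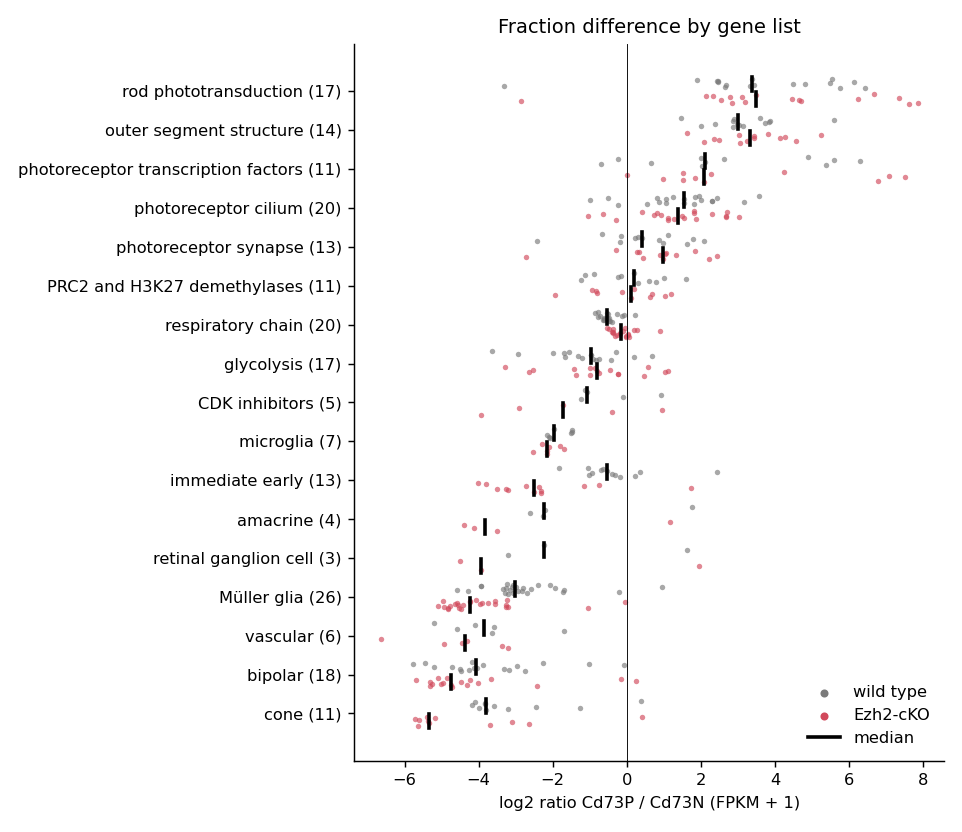
Points are genes, plotted by their log2 ratio of Cd73P over Cd73N (FPKM + 1) on the x axis for each gene list on the y axis (number of genes with status OK in all 4 libraries in brackets), in grey for wild type and red for Ezh2-cKO, with black bars at the medians. The Müller glia and cone medians lie further to the left in Ezh2-cKO (-4.22 and -5.33) than in wild type (-3.03 and -3.81), and the immediate early median moves from -0.54 to -2.51.

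The level of these lists in the opposite fraction gives the same comparison without a pseudocount. For Müller glia genes the FPKM in Cd73P was a median of 8.15% of that in Cd73N in wild type and 3.90% in Ezh2-cKO, and it was lower in Ezh2-cKO for 26 of 26 genes. For cone genes it was 6.65% and 2.22%, lower for 10 of 11, and for bipolar genes 5.11% and 2.09%, lower for 15 of 18. In the other direction, the FPKM of outer segment genes in Cd73N was 12.0% of that in Cd73P in wild type and 9.62% in Ezh2-cKO, lower for 10 of 14. For rod phototransduction genes it was 9.53% and 8.84%, lower for 12 of 17. For synaptic genes it was 74.5% and 49.3%, lower for 11 of 13. The median was not lower for cilium genes, at 31.0% and 36.3% (lower for 7 of 20 genes), or for the transcription factors, at 23.1% and 23.6% (lower for 7 of 11). How far the purity of each sort enters these shares was not tested.

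**Figure D3:**
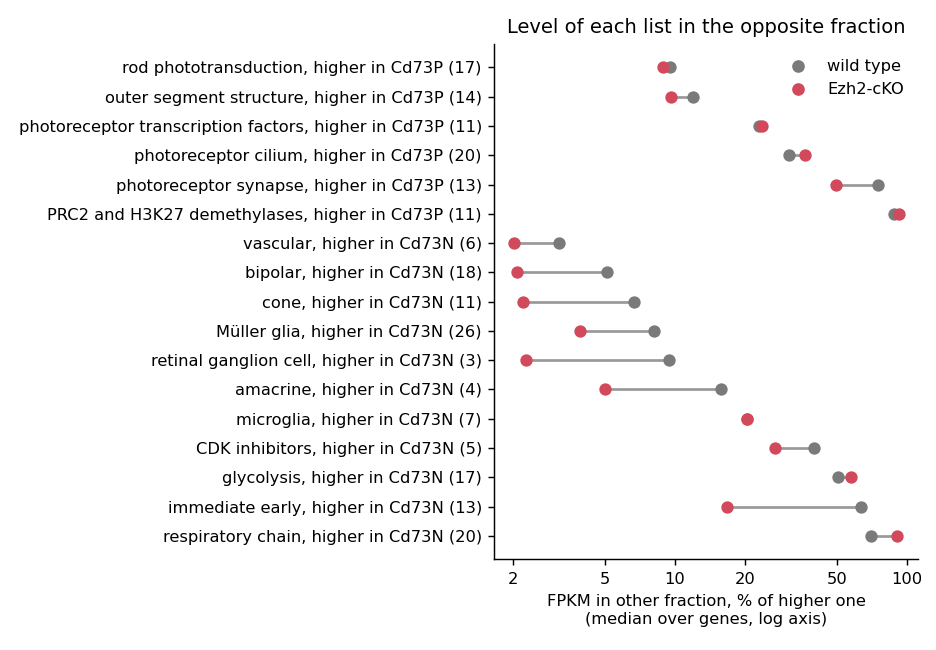
For each list the x axis (log scale) gives the median FPKM in the fraction where the list is lower, as a percent of the fraction where it is higher, in grey for wild type and red for Ezh2-cKO; the number of genes is in brackets. The red point lies to the left for cone, bipolar and Müller glia genes (2.22%, 2.09% and 3.90%), and the 2 points of the microglia list lie on each other at 20.4% and 20.3%.

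Markers of other cells were few or low. Of 16 amacrine genes 4 were compared, and 3 of them widened towards Cd73N. The other, Slc6a9, was kept on the Cd73P side, at 6.46 and 24.1 FPKM in wild type and 8.96 and 21.4 in Ezh2-cKO. Pax6, a homeodomain factor, was at 20.4 and 2.51 FPKM in wild type and 63.5 and 2.69 in Ezh2-cKO. Of 14 ganglion cell genes 3 were compared, the defining factors Pou4f1, Pou4f2 and Pou4f3 were at 0 to 0.58 in all 4 libraries, and no horizontal cell gene of 6 reached the minimum. Thy1, a surface protein of ganglion cells and other neurons, was at 6.52 and 0.61 in wild type and 30.3 and 0.37 in Ezh2-cKO. Thy1 and Gap43 widened towards Cd73N, with shifts of -2.29 and -0.72. Nefh, the remaining ganglion cell gene compared, was kept on the Cd73P side with a shift of 0.33. The median shift of these 3 genes was -0.72, and it was -0.26 over all listed ganglion cell genes. Microglia genes kept their division: 7 of 13 were compared, all 7 were higher in Cd73N, and 6 were kept and 1 widened, with a median fraction ratio of -2.14 against -1.97. The complement gene C1qa was at 22.2 and 4.51 in wild type and 34.1 and 6.94 in Ezh2-cKO.

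Of 13 vascular genes 6 were compared, all 6 at least 1.5-fold higher in Cd73N of Ezh2-cKO, with a median fraction ratio of -4.38 against -3.87 in wild type. Over all 13 the median in Ezh2-cKO was -2.01. Under the minimum, Pecam1 was higher in Cd73P in both genotypes, at 0.93 and 2.25 FPKM in wild type and 1.07 and 2.85 in Ezh2-cKO. Cdh5 and Cldn5 leaned to Cd73P in wild type alone (ratios of 0.21 and 0.30), and the remaining genes lay towards Cd73N. Rgs5, a marker of pericytes, was at 173 and 3.76 FPKM in wild type and 209.7 and 1.13 in Ezh2-cKO, a ratio of -6.63. Kdr, an endothelial receptor for VEGF that is also found in other retinal cells, was at 22.6 and 0.96 in wild type and 86.2 and 3.01 in Ezh2-cKO. The haemoglobin transcripts Hbb-b1, Hbb-b2 and Beta-s held 3 of the 8 lowest ratios in Ezh2-cKO, from -6.63 to -7.17, and as near-identical copies they share reads, so their separate values are uncertain. Tubb2a and Mgp, a matrix protein of vessel walls, were also among the lowest, at 302 and 4.53 and at 133 and 0.90 in Ezh2-cKO, and Tubb2a belongs to a tubulin family whose copies can share reads. Pigment cell genes ran the other way. Dct and Pmel were at 0.46 and 6.63 and at 0.63 and 6.98 FPKM in Ezh2-cKO and at 0.88 and 11.3 and at 0.65 and 8.34 in wild type, higher in Cd73P in both and under the minimum in Ezh2-cKO. Summed over 9 listed pigment epithelium genes the FPKM was 17.6 and 31.3 in Cd73N and Cd73P of wild type and 44.5 and 22.2 in Ezh2-cKO, where Rrh alone held 39.9 in Cd73N, and the part of these cells in the Cd73P values was not tested.

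Which fraction carried the shifts differed by class. Of the 182 genes widened towards Cd73P, 97 differed by at least 1.5-fold between genotypes in Cd73P alone, 27 in Cd73N alone and 5 in both, and the rest passed only in the sum of smaller differences. Their median difference between genotypes was 0.69 in Cd73P and -0.18 in Cd73N. Of the 700 genes widened towards Cd73N, 407 passed in Cd73N alone, 179 in Cd73P alone and 25 in both, with medians of 0.81 in Cd73N and -0.16 in Cd73P. On both sides the larger median lay in the fraction where the genes were higher in Ezh2-cKO. The minimum on the Ezh2-cKO pair favours this outcome, since it admits genes that are high only there, so no conclusion is drawn from it. With the minimum on the wild-type pair, 127 genes were widened towards Cd73P and 411 towards Cd73N. Of the 182 and 700 genes, 86 and 148 were under the threshold in wild type.

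**Figure D4:**
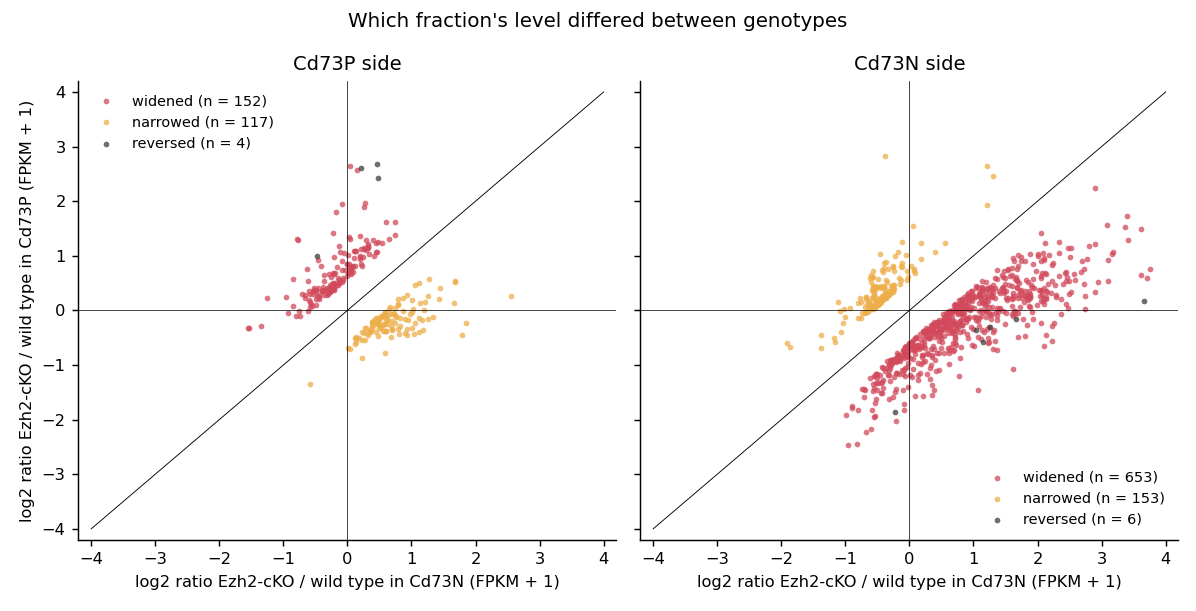
Genes widened, narrowed or reversed, small RNA names left out, are plotted by their log2 ratio of Ezh2-cKO over wild type (FPKM + 1) in Cd73N on the x axis and in Cd73P on the y axis, for genes of the Cd73P side (left) and the Cd73N side (right); the diagonal marks equal change in both fractions. Most widened genes on the right lie beyond 0 on the x axis (median 0.81 with small RNAs included) and near 0 on the y axis (median -0.16).

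Outside the lists, the genes most widened towards Cd73P were weakly expressed in Cd73N in both genotypes. 1700027A23Rik was at 0.12 FPKM in Cd73N and 1.73 in Cd73P of wild type and at 0.15 and 15.98 in Ezh2-cKO, a shift of 2.60 ± 0.20 (SE). Chrna5, a nicotinic acetylcholine receptor subunit (chr9:54828687-54855586), was at 0.22 and 6.90 in wild type and 0.36 and 46.2 in Ezh2-cKO, a shift of 2.42. Kcnj14, an inward rectifier potassium channel (chr7:53071837-53080117), was at 5.64 and 30.04 in wild type and 5.25 and 118 in Ezh2-cKO. In all of these the Cd73N level was nearly the same in the genotypes and the Cd73P level was at least 3 times the wild-type value. Aqp1, a water channel, was at 1.55 and 21.5 in wild type and 1.26 and 76.9 in Ezh2-cKO. 3632451O06Rik was lower in Cd73N and higher in Cd73P of Ezh2-cKO, at 3.17 and 5.91 in wild type and 1.44 and 15.9 in Ezh2-cKO. The shifts of Aqp1 and 3632451O06Rik were 1.97 and 2.07 ± 0.12 (SE).

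The genes most widened towards Cd73N were led by immediate early genes, which cells switch on within minutes of a stimulus, tissue dissociation included. Of 17 listed genes 13 were compared, 12 were at least 1.5-fold higher in Cd73N of Ezh2-cKO and 1 in Cd73P, and 10 were widened. Over all genes 42.3% were higher and 9.33% widened on the Cd73N side. The shift was negative for all 13, with a median of -2.19, and the median fraction ratio was -2.51 against -0.54 in wild type. Fos was at 53.3 and 25.7 FPKM in wild type and 465 and 49.5 in Ezh2-cKO, a shift of -2.19, and Fosb at 1.67 and 1.02 and at 33.9 and 2.06, a shift of -3.11. Dusp1, a phosphatase that ends MAP kinase signals, was at 14.6 and 17.1 in wild type and 104 and 17.3 in Ezh2-cKO. Its level in Cd73P was thus nearly equal in the genotypes. Jun was at 20.4 and 26.6 in wild type and 90.6 and 16.6 in Ezh2-cKO, and Zfp36, which marks unstable mRNAs for decay, at 3.63 and 1.24 and at 55.6 and 2.51. Summed over the 17 genes the FPKM was 403 and 344 in wild type and 1691 and 352 in Ezh2-cKO, so the Cd73N Ezh2-cKO library stood apart from the other 3, and how the sorts were handled was not tested as a part of it.

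Other genes of this class were not of that list. Slc13a5, a citrate transporter, was at 2.06 and 0.11 FPKM in wild type and 40.2 and 0.88 in Ezh2-cKO, a shift of -2.99. Both of its Cd73P levels were below the pseudocount, so the size of this shift rests on it. 4930447C04Rik was at 6.18 and 2.08 and at 32.7 and 1.10, a shift of -2.78. Meg3, an imprinted long noncoding RNA, was at 16.7 and 0.88 in wild type and 81.8 and 0.55 in Ezh2-cKO, which placed it among the 8 lowest fraction ratios at -5.74. Neurod4, a proneural factor of bipolar and amacrine cells, was also among these, at 350.4 and 12.4 in wild type and 261 and 3.69 in Ezh2-cKO.

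The fraction that carried the narrowing was counted on each side among the genes compared. Of the 148 genes narrowed from Cd73P, 84 differed past 1.5-fold between genotypes in Cd73N alone and 8 in Cd73P alone, with medians of 0.72 in Cd73N and -0.22 in Cd73P. Most of these 148 thus had a higher level in Cd73N of Ezh2-cKO. The minimum on the Ezh2-cKO pair leaves out genes that are low in both fractions there and admits genes that are high only there. This favours a split towards higher levels in Cd73N, so no conclusion is drawn from it. With the minimum on the wild-type pair, 181 were narrowed from Cd73P and 204 from Cd73N. Zfp36l2, an RNA-binding protein related to Zfp36, was at 5.45 and 25.9 FPKM in wild type and 36.8 and 31.3 in Ezh2-cKO, a shift of -2.29. Htra1, a secreted protease, was at 15.8 and 84.5 in wild type and 57.1 and 61.9 in Ezh2-cKO, and Gldc, of the glycine cleavage system, at 4.51 and 19.6 and at 19.0 and 16.6. Their shifts were -2.24 and -2.08 ± 0.079 (SE). On the FPKM + 1 scale these 3 genes were 4.17-fold, 5.10-fold and 3.73-fold higher in Cd73P of wild type and within 1.5-fold between the fractions of Ezh2-cKO. Lrp4, a lipoprotein receptor family member, stayed higher in Cd73P, at 1.15 and 45.3 in wild type and 3.86 and 34.9 in Ezh2-cKO.

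Of the 166 genes narrowed from Cd73N, 43 passed in Cd73P alone, 39 in Cd73N alone and 5 in both. Pcp4l1, a calmodulin-binding peptide related to Pcp4 (chr1:173103395-173126399), had the largest shift towards Cd73P of the named genes, 3.21, at 140.1 and 15.0 FPKM in wild type and 107 and 113 in Ezh2-cKO. Its Cd73P level differed past 1.5-fold between genotypes and its Cd73N level did not. Ptprn, a protein of secretory granules, was at 15.2 and 5.98 in wild type and 36.5 and 42.6 in Ezh2-cKO, and Nsg2, of neuronal endosomes, at 60.4 and 6.90 and at 55.8 and 17.9. Their shifts were 1.43 and 1.37. Pde8a and Akr1b3 shifted by 1.49 ± 0.12 and 1.49 ± 0.18 (SE). Cdh8, a cadherin of OFF bipolar cells, was at 46.2 and 0.69 in wild type and 11.6 and 0.12 in Ezh2-cKO, and its shift of 1.30 rests on Cd73P levels below the pseudocount.

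Opposite directions in the genotypes were found for 42 genes, 32 of them small RNAs by name, for which a poly(A) library is a poor measure. Of the other 10, Krt18, a keratin (chr15:101858647-101862457), was at 63.0 and 19.1 FPKM in wild type and 73.2 and 122 in Ezh2-cKO, so its fraction ratio went from -1.67 to 0.72. Mef2c, a MADS-box transcription factor (chr13:83643033-83806684), was at 1.85 and 0.77 in wild type and 2.92 and 10.3 in Ezh2-cKO, and its ratio went from -0.69 to 1.53 with a shift of 2.22 ± 0.079 (SE). Both had a higher level in Cd73P of Ezh2-cKO, and their Cd73N levels were higher there by less than 1.5-fold on the FPKM + 1 scale. Slc2a1, the glucose transporter of photoreceptors, glia and vessels, was at 49.3 and 78.1 in wild type and 102 and 60.9 in Ezh2-cKO, and its ratio went from 0.65 to -0.74. Among the rest, Gm10664 and D16Ertd472e turned towards Cd73P, and Leng8, Slmap, Cplx2 and the pseudogene Pisd-ps1 towards Cd73N. Reads of Pisd-ps1 can be split with its parent gene, so its value is uncertain.

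**Figure D5:**
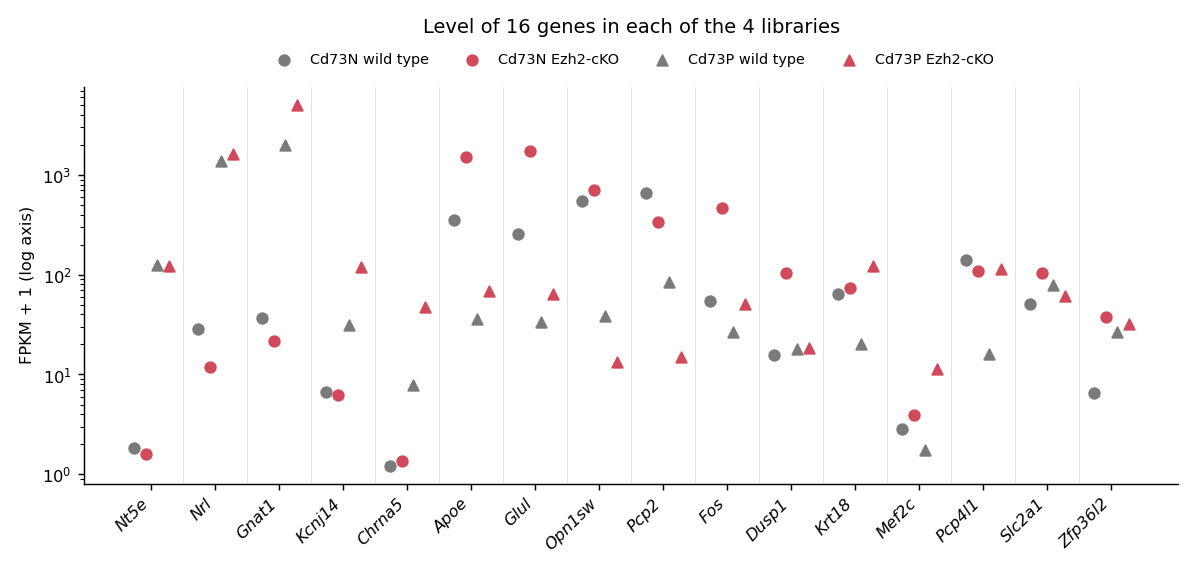
The level of 16 genes is shown as FPKM + 1 on a log axis, with circles for Cd73N, triangles for Cd73P, grey for wild type and red for Ezh2-cKO, 1 library each. The red triangle stands above the grey one for Kcnj14 (118 against 30.04 FPKM), Krt18 (122 against 19.1) and Pcp4l1 (113 against 15.0), and the red circle above the grey one for Glul (1759.8 against 257) and Fos (465 against 53.3).

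Genes of energy metabolism moved towards Cd73P as groups, and their direction within Ezh2-cKO depended on scaling. Of 20 genes of the respiratory chain none was at least 1.5-fold higher in Cd73N of Ezh2-cKO. Their median fraction ratio was -0.15 against -0.52 in wild type, and it became 0.094 with median scaling and 0.077 with scaling by the FPKM sum. The shift was positive for all 20, with a median of 0.36 that stayed positive at 0.31 and 0.18 under these scalings. Atp5b, of ATP synthase, was at 896 and 636 FPKM in wild type and 655 and 685 in Ezh2-cKO, and Cox4i1, of cytochrome oxidase, at 805 and 512 and at 558 and 460.2. In both the Cd73N level was lower in Ezh2-cKO, as it was for the list, whose median difference between genotypes was -0.35 in Cd73N and 0.0013 in Cd73P.

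For glycolysis, 17 of 18 listed genes were compared. In Ezh2-cKO 2 were at least 1.5-fold higher in Cd73P and 10 in Cd73N, beside 17.5% and 42.3% of all genes. The median fraction ratio was -0.80 against -0.97 in wild type. The shift was positive for 14 of 17, and 7 of them shifted by at least 1.5-fold. Pgam1 was at 672 and 169 FPKM in wild type and 395 and 198 in Ezh2-cKO, and Gapdh at 481 and 208 and at 326 and 277, and both were narrowed with shifts of 0.99 and 0.97. Ldha, of lactate formation, and Hk1 were the genes at least 1.5-fold higher in Cd73P of Ezh2-cKO. Ldha was at 560.1 and 900.2 in wild type and 449 and 973 in Ezh2-cKO. Pkm2 and Aldoa were higher in Cd73P of Ezh2-cKO by less than 1.5-fold, at 836 and 1234 and at 513 and 703. Hk2, the hexokinase typical of photoreceptors in adult retina, shifted the other way, at 12.1 and 4.25 in wild type and 13.4 and 1.31 in Ezh2-cKO, by -1.32 ± 0.083 (SE).

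PRC2 and H3K27 demethylase genes lay on both sides. Of 13 listed genes 11 were compared. In Ezh2-cKO 4 were at least 1.5-fold higher in Cd73P and 4 in Cd73N, beside 17.5% and 42.3% of all genes. The median fraction ratio was 0.11 in Ezh2-cKO against 0.18 in wild type. The sign in Ezh2-cKO turned to -0.072 when the mean was taken and to -0.038 over all listed genes. Ezh2 was higher in Cd73N in both genotypes, with a ratio of -1.93 ± 0.070 (SE) in Ezh2-cKO and -1.24 in wild type. Its homologue Ezh1 leaned to Cd73P, at 7.34 and 11.7 FPKM in wild type and 6.73 and 14.7 in Ezh2-cKO. The widening of Ezh2, -0.69 ± 0.098, came from both a higher level in Cd73N and a lower level in Cd73P. Jarid2, a PRC2 cofactor, was kept in Cd73P at 16.7 and 52.9 in wild type and 15.0 and 35.6 in Ezh2-cKO. Kdm6b, an H3K27 demethylase, was at 12.1 and 10.2 in wild type and 10.3 and 5.51 in Ezh2-cKO, so it passed 1.5-fold towards Cd73N in Ezh2-cKO alone, with a shift of -0.56 ± 0.064 (SE).

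Among cell cycle inhibitors, Cdkn2a, which encodes p16Ink4a and p19Arf (chr4:88920377-88940523), was at 1.10 FPKM in Cd73N of wild type, listed at 0 in Cd73P of wild type, and at 20.7 and 1.87 in Ezh2-cKO. It was thus higher in both fractions of Ezh2-cKO, and its shift rests on the listing at 0. Cdkn1a, p21, was at 9.88 and 3.60 in wild type and 32.5 and 1.20 in Ezh2-cKO, a shift of -2.69 ± 0.12 (SE). Cdkn1c leaned to Cd73P with a ratio of 0.94 in wild type and 0.96 in Ezh2-cKO. Of 7 listed inhibitors 5 were compared. In Ezh2-cKO 3 were at least 1.5-fold higher in Cd73N and 1 in Cd73P, beside 42.3% and 17.5% of all genes. Proliferation genes were sparse: of 13 listed, Ccnd1 and Pcna alone reached the minimum, and Ccnd1, cyclin D1, was at 9.06 and 1.07 in wild type and 14.5 and 1.31 in Ezh2-cKO.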

How the data were processed

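The authors aligned 36-base reads without mismatches to mm9 with TopHat2 2.0.8b, allowing up to 50 hits per read, and deposited FPKM with bounds and a status per RefSeq gene from Cufflinks 2.1.1 (base calls: bcl2fastq 1.8.4). Values were not scaled between libraries. Rows were joined by symbol and locus, and coordinates are given with 1 added to the listed start. Log2 ratios used a pseudocount of 1, and the threshold was 1.5-fold. SE took the width of the bounds as 4 SE. Calculations used Python 3.11.15, numpy 2.4.6, pandas 2.3.3 and matplotlib 3.10.9, and class assignment was tested on simulated data. Groups came from sample titles, 1 library each, so no test was run. The genes compared and the 20 lists were chosen with earlier results of these data known. Named genes were label checks, genes the study's text names, the 8 highest and lowest ratios, the 6 largest shifts per class, the 6 reversed genes furthest past the threshold in both genotypes, and up to 7 per list by level and shift; other list members were named after their values were seen. Alternatives were pseudocounts of 0.1 and 5, median and sum scaling, 2-fold, other minimums, summed symbols, and exclusion of small RNAs, of chromosomes X and Y or of rows with inconsistent bounds. Promoter sequences are from RefSeq. Symbols on several rows were left out of lists. Some genes that met the naming rule are not reported here.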

Additional observations from a re-analysis of the deposited data

Results flagged for a closer look

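In 6 genes that are not small RNAs, the fraction difference passed 1.5-fold in both genotypes in opposite directions, with the smaller of the 2 ratios largest among the 10 such genes. The difference between the genotypes was not tested, as each group holds 1 library. The log2 ratio of Cd73P over Cd73N in Ezh2-cKO minus that in wild type was 2.39 for Krt18, 2.22 for Mef2c, 1.95 for Gm10664 and 1.46 for D16Ertd472e, which were higher in Cd73N of wild type and in Cd73P of Ezh2-cKO. It was -1.72 for Leng8 and -1.39 for Slc2a1, which were higher in Cd73P of wild type and in Cd73N of Ezh2-cKO. The wild-type levels of Mef2c (1.85 and 0.77 FPKM) and Gm10664 (2.99 and 1.18) were low in both fractions.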

How the results depend on the processing

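The count higher in Cd73P of Ezh2-cKO (1311) became 842 at 2-fold, 688 where both libraries had to reach 10 FPKM and 749 without rows above their own upper bound, an alternative chosen after seeing the data. The count higher in Cd73N (3180) became 2076, 1404 and 1425 under these and 6056 with a minimum of 1 FPKM. Without rows above their bounds, which tests fewer genes, 549 and 934 were kept, 61 and 337 widened and 79 and 50 narrowed on the Cd73P and Cd73N side, and 6 reversed. At 2-fold, 59 and 348 were widened, 60 and 41 narrowed and 18 reversed. Scaling by the FPKM sum gave 1337 kept on the Cd73N side and 312 and 71 narrowed, and median scaling 109 narrowed on the Cd73N side. With a pseudocount of 5, 94 were narrowed on the Cd73P side. The minimum on the wild-type pair gave 411 widened towards Cd73N, and the minimum on both genotypes, added after seeing the data, 409. Without small RNAs 10 were reversed. The cause of the changes under scaling was not tested. With a pseudocount of 0.1 the shift of Cdkn2a, which rests on a listing at 0, went from -1.85 to 0.18 and that of Vsx1 from 0.59 to -0.14, and over all listed pigment epithelium genes the median ratio was 0.72 against -3.72 for the 1 gene compared. No other called list median or named gene was reversed, and the sign changes of the outer segment, respiratory chain and PRC2 medians stand in the report. Moves of the ratios and shifts of named genes were set against a multiple of the counting SE. Where a gene had no SE of its own, the median SE over the genes compared was used. By this measure 164 stayed within the range with a pseudocount of 0.1, 114 with 5, 140 with median and 58 with sum scaling. Apart from the reversed shifts, 110, 162, 136 and 218 moved past it. No paired analysis was possible because the labels carry no replicate numbers and each group holds 1 library, so leaving out a library was not possible either. Depth is unknown, and levels under 1 FPKM limit the ratios of genes nearly absent from a fraction.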
